A study of Mus musculus with 1920 samples.

Results

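Single microglia from the late phase of 2 injuries were compared: the corpus callosum during remyelination after cuprizone, and the facial nucleus 14 days after the facial nerve was cut. The contrast was an interaction, the remyelination group minus untreated corpus callosum, less the day 14 group minus untreated facial nucleus, so that each injury was set against its own region. A well counted as a cell if it held 20000 or more gene counts and 500 or more genes, with mitochondrial reads under 25% and spike-in reads under 50%. This left 634 of the 1644 kept cells of the series, summed to 16 of its 40 sums, 1 for each labelled mouse, with 4 in each group. All 4 groups were CD1 mice aged 16 weeks. Untreated facial nucleus gave 161 kept cells and untreated corpus callosum 173, both with the treatment label none. The group labelled Facial_nerve_axotomy_day_14 gave 171 cells and the group labelled Cuprizone_remyelination_stage gave 129, each from 190 sorted wells. The axotomy wells carry the tissue label facial nerve and the source label facial nucleus, and are treated here as facial nucleus. Cells were sorted 1 per well by antibodies to the surface proteins CD11b, CD45, CD206, Ly6C and Ly6G. The sources used here do not give the gates. The labels give 4 replicate numbers per group, whereas the series' design text puts the mice at 3 to 4 for a condition and says that the untreated regions came from the same mice. The p-values therefore measure the spread between labelled samples and would be too small if 2 of them shared a mouse.

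Microglia are the resident macrophages of the brain. Cuprizone is a copper chelator that kills oligodendrocytes and strips myelin from the corpus callosum, and once it is withdrawn new oligodendrocytes rebuild the sheaths while microglia take up and digest myelin debris. Cutting the facial nerve injures the axons of motor neurons outside the brain, and microglia gather around the cell bodies in the facial nucleus. Apoe encodes a lipid carrier, Axl a receptor tyrosine kinase that binds dying cells through the ligand Gas6, and Cd74 the invariant chain that guides MHC class II molecules. In many injury settings microglia raise such genes together with lysosomal proteases and lower genes typical of the resting state, among them P2ry12 and Tmem119.

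The remyelination libraries stood apart from the others before any gene was compared. Of their wells 67.9% were kept (95% Wilson interval 61.0 to 74.1, counting error only), against 84.7 to 91.1% in the other 3 groups. The median kept remyelination cell had 383610 gene counts over 1517 genes, and the medians of the other 3 groups lay between 150471 and 212587 counts over 2659 to 2926 genes. Its median spike-in share was 18.4%, against 8.5 to 12.4%, and its median mitochondrial share 2.24%, against 1.06 to 1.54%. Sums held 10921747 to 15279695 counts in remyelination and 5298853 to 11860778 in the other groups, from 29 to 47 cells each. The 4 groups lay on 4 different plates, so plate and group cannot be told apart in the comparison with untreated tissue. Counts are given below as scaled CPM, each gene's counts relative to the TMM-adjusted library size, and the TMM factors were 0.617 to 0.723 in remyelination and 1.022 to 1.289 elsewhere.

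Apoe, Axl and Cd74 were high in every remyelination mouse, and none of the 3 passed the test of the interaction. Apoe (ENSMUSG00000002985, chromosome 7, 19696109 to 19699188, minus strand, GRCm38) was at 289100, 192700, 175700 and 174700 CPM in the remyelination mice. In untreated corpus callosum it was at 824.2, 411.5, 2218 and 258.9 CPM. The day 14 mice were at 2589, 40.57, 4145 and 441.1 CPM, and in untreated facial nucleus at 0.8802, 326.2, 237.1 and 0.876 CPM. The remyelination values lay far above every other mouse, while the day 14 and facial nucleus ranges overlapped. The interaction was a log2 difference of 4.13 ± 2.26 (SE), with an adjusted p of 0.289. Here and below, adjusted p is edgeR's quasi-likelihood p with Benjamini-Hochberg adjustment over the 20287 genes tested, and "called" or "passed" means under 0.05. The separate arms were 7.81 ± 2.07 for remyelination (adjusted p = 0.0567) and 3.67 ± 1.71 for day 14 (adjusted p = 0.965). The day 14 and facial nucleus values each spanned more than an order of magnitude between mice.

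Axl (ENSMUSG00000002602, chromosome 7, 25757273 to 25788705, minus strand) was at 1367, 1274, 956.6 and 1566 CPM in remyelination. In corpus callosum it was at 0.5263, 0, 1.53 and 11.41 CPM. Day 14 mice had 122.7, 14.17, 169.3 and 6.394 CPM, and in facial nucleus at 31.79, 7.37, 31.25 and 0 CPM. The remyelination mice were again apart from all 12 others, and 2 of the day 14 mice exceeded every facial nucleus mouse while the other 2 did not. The interaction was 6.43 ± 2.25 (adjusted p = 0.12), and the remyelination arm alone passed at 8.58 ± 2.02 (adjusted p = 0.0395).

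Cd74 (ENSMUSG00000024610, chromosome 18) was the most uneven of the 3 within remyelination, at 665.2, 9582, 6336 and 2752 CPM. Corpus callosum gave 24.74, 22.46, 105.5 and 2.056 CPM. Day 14 gave 96.03, 10.66, 104 and 46.09 CPM, and facial nucleus 124, 39, 14.23 and 25.89 CPM. The day 14 and untreated groups overlapped throughout, and the lowest remyelination mouse was still above all of them. The interaction was 6.63 ± 1.68 (adjusted p = 0.0597), with 6.96 ± 1.41 in the remyelination arm (adjusted p = 0.0203) and 0.34 ± 1.09 in the day 14 arm. Among the settings tried, Apoe was called in 2 of 31, Axl in 5 of 32 and Cd74 in 4 of 32, and in none of the 16 fits that left out 1 mouse. The direction was positive in each of these fits, from 3.31 to 9.18 for Apoe, 5.66 to 9.44 for Axl and 5.55 to 7.87 for Cd74.

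**Figure D1:**
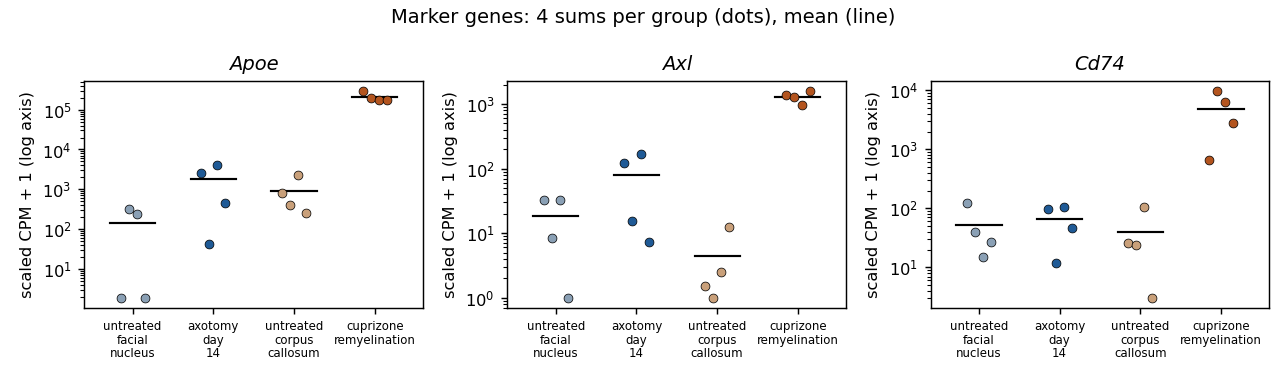
Scaled CPM plus 1 (log axis) of Apoe, Axl and Cd74 in each labelled mouse of the 4 groups, with a bar at the group mean. All 4 remyelination mice lie above all 12 others for each gene, and the day 14 mice overlap untreated facial nucleus.

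A sum over cells cannot tell more cells carrying a transcript from more transcript in each, so cells with at least 1 read were also counted after thinning every cell to 20000 counts, a step no kept cell was too shallow for. After thinning Apoe was read in every remyelination cell of all 4 mice, in 44.6% ± 9.25 (SD, n = 4) of corpus callosum cells, 28.5% ± 14 at day 14 and 8.63% ± 7.1 in facial nucleus. Axl was read in 71.0% ± 18.1 of remyelination cells, 1.72% ± 1.16 in corpus callosum, 14.7% ± 9.27 at day 14 and 3.61% ± 3.08 in facial nucleus. Cd74 was read in 54.6% ± 17.3, 5.09% ± 4.02, 9.95% ± 4.25 and 7.29% ± 2.77 of cells in the same order of groups. Apoe was thus read throughout the remyelination cells, and Cd74 in only a part of them at this depth. Unthinned shares were 80.4% for Axl and 85.1% for Cd74 in remyelination, and 100% for Apoe. Of the 20 wells without a cell, 6 had an Apoe read, 2 an Axl read and 5 a Cd74 read, at a median of 524.5 gene counts, so low shares include some background. The genes of this panel were chosen after their levels had been seen.

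**Figure D2:**
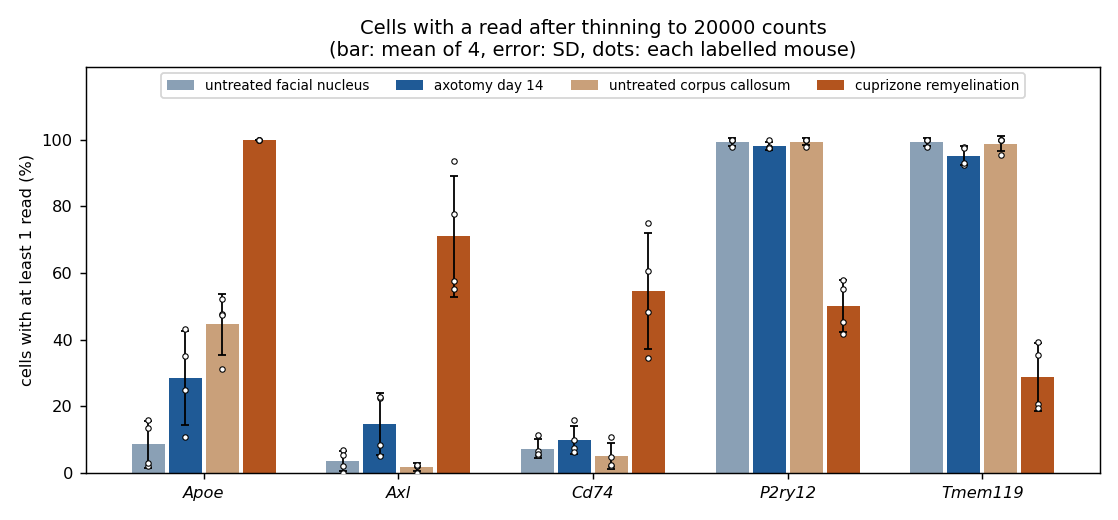
Percent of cells with at least 1 read after thinning each cell to 20000 counts (bar, mean of 4 mice; error, SD; dots, mice), by gene and group. Apoe reaches 100% in remyelination, and P2ry12 and Tmem119, read in over 95% of cells in the other 3 groups on average, are at 50.1% and 28.8% there.

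The median remyelination cell held 113200 CPM of Apoe (not TMM-scaled), with 10% of cells under 12530 and 10% over 287800 CPM, against a median of 5.576 CPM in corpus callosum, 2.804 at day 14 and 0 in facial nucleus. Demyelination cells, from the earlier cuprizone stage, were also high, with a median of 74300 CPM and 10% of cells under 18540 CPM. For Cd74 the median remyelination cell was at 59.3 CPM and the cell at the 90th percentile at 11820 CPM, so Cd74 levels ranged widely between cells.

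Across all genes, 69 of 20287 were higher in the interaction (0.34%) and 87 were lower (0.429%), and 4865 had an unadjusted p under 0.05. For the interaction DESeq2's Wald test called 2734 of the 20287 genes. The limma fit, on the mean log2 level per cell without TMM, called 1158. The remyelination arm alone had 328 genes higher (1.62%) and 450 lower (2.22%). The day 14 arm had none (0.0%) by edgeR's test, where 1073 genes had an unadjusted p under 0.05. For that arm DESeq2's Wald test called 142 genes and limma 1. Of the 69 higher genes 66 were also called in the remyelination arm, and 40 had a day 14 difference under 0.5 in size on the log2 scale. The 2 arms and the interaction share the same 16 sums, so these counts are not separate evidence. The median over all genes tested was -1.14, and it differed by level: 3762 genes with a mean of at least 50 CPM had a median of 0.46 with 66 higher and 12 lower, and the 16525 genes under that level had -2.13 with 3 higher and 75 lower. Of the 87 lower genes 57 had no count at all in remyelination, whose cells had fewer detected genes, and the part of this in the result was not tested. With DESeq2's size factors the split was 53 higher and 119 lower (all-gene median -1.40), and with upper-quartile scaling 93 and 103 (-1.05). Of the 69 higher genes 53 were called under both of those scalings and 29 in all 16 fits without 1 mouse. Of the 87 lower genes the numbers were 84 and 18.

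Genes of the disease-associated program, those known to rise in microglia around damage, were called in 1 direction only. Of 32 measured, 14 were higher and none lower, where 0.34% of all genes were higher, with a median interaction of 2.80. Most members were well read, and genes of at least 50 CPM had a median of 0.46 with 66 of 3762 higher. The 14 were Fth1, Ctsb, Ctsd, Cd9, Anxa5, Tyrobp, Cd68, Ctsz, Cd63, Igf1, Ccl6, Ctsl, Fabp5 and Trem2. In the remyelination arm 25 of the 32 were higher, against 1.62% of all genes, and in the day 14 arm none passed, with a median of 0.61. Of the members that missed the test, Gpnmb was at 7.19 and Lgals3, a galectin, at 10.23, with adjusted p of 0.0505 and 0.0577. Cst7 was the member with a negative value, at -1.53 (adjusted p = 0.783).

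Fth1, the heavy chain of the iron store ferritin, had the smallest p of the named genes. It was at 22950, 10630, 20180 and 12310 CPM in remyelination and at 1898, 1089, 1872 and 992.2 CPM in corpus callosum. Day 14 values were 1698, 1558, 2289 and 1377 CPM, against 1652, 1024, 1273 and 1133 CPM in facial nucleus. Every remyelination mouse was above every other mouse, and the day 14 mice overlapped the untreated ones. The interaction was 3.05 ± 0.35 (adjusted p = 3.74e-05), from 3.50 in the remyelination arm and 0.45 in the day 14 arm. Processed copies of Fth1 in the genome could have split its reads in the counting.

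Cd9, a tetraspanin of the cell surface, averaged 2841 ± 494 CPM in remyelination (SD, n = 4), 714.6 ± 152 in corpus callosum, 591.2 ± 157 at day 14 and 679.3 ± 53.1 in facial nucleus, with an interaction of 2.19 ± 0.32 (adjusted p = 0.000782). Trem2, the lipid-sensing receptor of microglia, had a smaller interaction of 1.34 ± 0.31 (adjusted p = 0.0404), from means of 2604 ± 500 CPM in remyelination, 1276 ± 280 in corpus callosum, 906.2 ± 216 at day 14 and 1123 ± 202 in facial nucleus. Tyrobp, its signalling adaptor, was at 1.69 (adjusted p = 0.00267). The Trem2 call was kept in 5 of the 16 fits without 1 mouse, and that of Tyrobp in all 16.

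Igf1, a growth factor that supports oligodendrocytes and myelination, was low in the other 3 groups of the contrast. It was at 157.2, 324.7, 815.7 and 227 CPM in remyelination and at 0.1754, 7.157, 0.7201 and 9.558 CPM in corpus callosum. Day 14 values were 0.1491, 0.1211, 5.626 and 14.53 CPM, and in facial nucleus at 10.27, 7.463, 23.82 and 18.88 CPM. The remyelination mice did not overlap any of these groups, and 3 of the day 14 mice lay below every facial nucleus mouse. The interaction was 7.99 ± 1.58 (adjusted p = 0.0149).

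Lysosomal genes encode the enzymes and membrane proteins that digest ingested material. Of the 34 measured members, 30 had a mean of at least 50 CPM, a level at which 66 of 3762 genes were higher with a median of 0.46. Among the 34, 10 were called, all higher, where 0.34% of all genes were higher, with a median of 1.15. The 10 were Ctsd, Ctsb, Ctsa, Cd68, Ctsz, Npc2, Cd63, Grn, Ctsl and Psap, of which 6 are also among the 14 disease-associated calls, and 33 of the 34 members had a positive value, the exception being Atp6v0c, a proton pump subunit, at -1.09 (adjusted p = 0.798). The remyelination arm alone called 18 members, all higher, against 1.62% of all genes. On the mean log2 level per cell, limma called 2 of the 34 members in the interaction, with a median of 0.35, and 1158 of all 20287 genes.

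Ctsd, the aspartic protease cathepsin D, was at 26680, 23160, 29460 and 24500 CPM in remyelination and at 7703, 6661, 10760 and 6824 CPM in corpus callosum. The day 14 mice were at 6235, 4560, 5543 and 6253 CPM, against 5295, 5068, 7349 and 7605 CPM in facial nucleus. The remyelination mice stood clear of the rest, and the day 14 range overlapped that of facial nucleus. The interaction was 1.86 ± 0.23 (adjusted p = 8.03e-05). Ctsb, the cysteine protease cathepsin B, was at 18970, 10940, 13500 and 14010 CPM in remyelination, while the other 12 mice lay between 1813 and 3528 CPM. Its interaction was 2.15 ± 0.27 (adjusted p = 8.03e-05). Ctsa, which protects other lysosomal hydrolases, was at 4440 ± 359 CPM in remyelination and 1784 ± 436 in corpus callosum, against 1060 ± 208 at day 14 and 1550 ± 346 in facial nucleus, with 1.86 ± 0.28 (adjusted p = 0.00135). Cd68, a glycoprotein of the lysosome membrane of phagocytes, was at 3483 ± 702, 1089 ± 279, 670.1 ± 146 and 749.1 ± 66.5 CPM in the same order, with 1.84 ± 0.30 (adjusted p = 0.003). For these 4 genes the day 14 arm lay between -0.55 and 0.26.

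Lysosomal genes often carry the letters CACGTG near their start, the core bound by TFEB and other E-box factors. The RefSeq windows around gene starts hold 300 bases (250 before to 50 after, GRCm38.p6). Only the 250 bases before the start were searched for the word. The word is its own reverse complement, so 1 search covers both strands. It was found in 8 of the 28 lysosomal members with a window (28.6%), in 1192 of 13266 tested genes with one (8.99%) and in 6.02% of all 32851 windows. Of the 69 higher genes 53 had a window and 6 held the word (11.3%), and of the 87 lower genes 46 had one and 5 held it (10.9%). The windows of the called members that hold it, Ctsa, Ctsd and Ctsl, overlap annotated exons and are not printed. Of those that do not, Lamp1 holds the most copies and Lgmn holds it with almost no difference, and these 2 are shown. Capitals mark CACGTG. Lamp1 lies at chr8:13159040-13159160 on the plus strand and Lgmn at chr12:102439093-102439201 on the minus strand.
Lamp1: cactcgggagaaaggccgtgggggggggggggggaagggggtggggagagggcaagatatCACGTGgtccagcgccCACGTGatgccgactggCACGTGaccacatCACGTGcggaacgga
Lgmn: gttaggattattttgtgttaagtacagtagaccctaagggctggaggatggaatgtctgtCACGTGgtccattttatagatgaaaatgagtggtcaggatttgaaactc
Lamp1, a major lysosome membrane protein, has 4 copies and an interaction of 1.21 (adjusted p = 0.0684), and Lgmn, an asparagine-cutting protease, has 1 copy and 0.07 (adjusted p = 0.913). The match is a description of the letters in these windows.

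Genes of lipid uptake and efflux were called in 4 of 23 measured members, all higher, against 0.34% of all genes, with a median of 1.78. They were Plin2, Npc2, Fabp5 and Trem2, of which all but Plin2 are also counted in the disease-associated or lysosomal list. Plin2, which coats lipid droplets, was at 740.9, 280.8, 437.2 and 367.7 CPM in remyelination and at 77.71, 76.85, 64.09 and 30.73 CPM in corpus callosum. Day 14 mice had 14.32, 26.77, 27.25 and 33.72 CPM, and in facial nucleus at 25.23, 85.08, 124.8 and 29.88 CPM. The remyelination mice were above all others, and the day 14 mice overlapped the facial nucleus mice, with a day 14 arm of -1.38 ± 0.50 (adjusted p = 0.685). The interaction was 4.25 ± 0.72 (adjusted p = 0.0039). Npc2, which hands cholesterol out of the lysosome, was at 2979 ± 470 CPM in remyelination, against 725.9 ± 178 in corpus callosum, 709.8 ± 207 at day 14 and 601.7 ± 108 in facial nucleus, with 1.80 ± 0.33 (adjusted p = 0.00865). Fabp5, a fatty acid binding protein, was at 144.2, 150, 145.1 and 125 CPM in remyelination and at or under 0.5505 CPM in corpus callosum, with a fitted 9.98 ± 2.25 (adjusted p = 0.0361).

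The sterol exporter Abcg1 was at 1.78 (adjusted p = 0.0814), Abca1 at 0.39 and the liver X receptor gene Nr1h3 at -1.22, none of them called. Of 22 genes of cholesterol synthesis none was called by edgeR, with 1 at an unadjusted p under 0.05, 1 called by DESeq2's Wald test and 1 by limma, and a median of 0.71. For all 20287 genes these last counts were 4865, 2734 and 1158. Nsdhl, a sterol dehydrogenase, had 4.23 ± 1.37 (adjusted p = 0.0816), Dhcr7 2.04, Mvd -4.32 and Sqle -3.82. Only 3 of the 22 synthesis genes had a mean of at least 50 CPM, against 14 of the 23 genes of uptake and efflux, so the counts of the lists are not comparable.

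The receptors and ligands around Axl gave no call. Of 5 measured, 2 had an unadjusted p under 0.05, and DESeq2's Wald test and limma each called 1 higher and 1 lower. Among all 20287 genes 4865 had such a p, DESeq2 called 282 higher and 2452 lower, and limma 103 and 1055. Mertk, the related receptor that microglia carry at rest, was at 190.9 ± 65.9 CPM in remyelination, 484.0 ± 112 in corpus callosum, 443.1 ± 114 at day 14 and 503.2 ± 120 in facial nucleus. Its interaction was -1.16 ± 0.42 (adjusted p = 0.109), and the remyelination arm fell by 1.34 on the log2 scale (adjusted p = 0.0142), the opposite direction to Axl. The ligand genes Gas6 and Pros1 were at 1.41 (adjusted p = 0.424) and 0.59 (adjusted p = 0.606).

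Among genes typical of resting microglia, 4 of 26 measured members were lower and none higher, where 0.429% of all genes were lower. Their median was -0.61, below the 0.46 of genes of at least 50 CPM and above the -1.14 of all genes, and 7 members were positive. In the remyelination arm 12 were lower, where 2.22% of all genes were lower. Tmem119, a surface marker of microglia, was at 681.7, 696.5, 333.4 and 567.6 CPM in remyelination and at 2866, 4529, 3330 and 4283 CPM in corpus callosum. At day 14 it was at 1614, 3150, 2003 and 3684 CPM, and in facial nucleus at 2993, 3408, 3532 and 4312 CPM. Every remyelination mouse was below every other mouse, and 2 of the day 14 mice lay below the facial nucleus range. The interaction fell by 2.27 ± 0.35 on the log2 scale (adjusted p = 0.00136), with -2.72 in the remyelination arm and -0.45 in the day 14 arm.

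P2ry12, the ADP receptor that draws microglial processes to injury, was at 1761, 1774, 1057 and 2663 CPM in remyelination, against 5986, 7447, 6908 and 6905 CPM in corpus callosum. At day 14 it was at 4757, 8086, 4611 and 9473 CPM and in facial nucleus at 5758, 6954, 6430 and 6855 CPM. The day 14 mice lay on both sides of the facial nucleus mice, and the interaction was -1.96 ± 0.32 (adjusted p = 0.00267). Selplg, which encodes a ligand of selectins, was at 912.4, 1503, 1109 and 1279 CPM in remyelination while the other 12 mice were between 2798 and 5930 CPM, with -1.81 ± 0.26 (adjusted p = 0.000782). Siglech, a sialic acid binding lectin of microglia, averaged 797.4 ± 209 CPM in remyelination and 2075 to 2360 CPM in the other groups, with -1.66 ± 0.32 (adjusted p = 0.0136). Not all members followed: Cx3cr1, the fractalkine receptor, was at -0.33 (adjusted p = 0.466) and Csf1r, the receptor that microglia need to survive, at -0.17 (adjusted p = 0.79).

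After thinning, P2ry12 was read in 50.1% ± 7.79 of remyelination cells and Tmem119 in 28.8% ± 10.2, against 99.4% of facial nucleus cells for each. The median remyelination cell had no Tmem119 read, where the other 3 groups had medians of 2673 to 3871 CPM. Demyelination cells, outside this contrast, were also low, with medians of 3.394 CPM for Tmem119 and 604.2 CPM for P2ry12. The sum of 12 microglia markers was 27500 to 36600 scaled CPM per remyelination mouse, 43360 to 47540 in corpus callosum, 28190 to 53670 at day 14 and 37480 to 48750 in facial nucleus, and 3 of the 12 were called lower. The share of all genes called lower was 0.429%. On the TMM scale the remyelination sums lay below every untreated mouse and overlapped those of day 14. Before TMM scaling they were 18590 to 26430 CPM, below the 35560 to 54490 CPM of day 14.

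**Figure D3:**
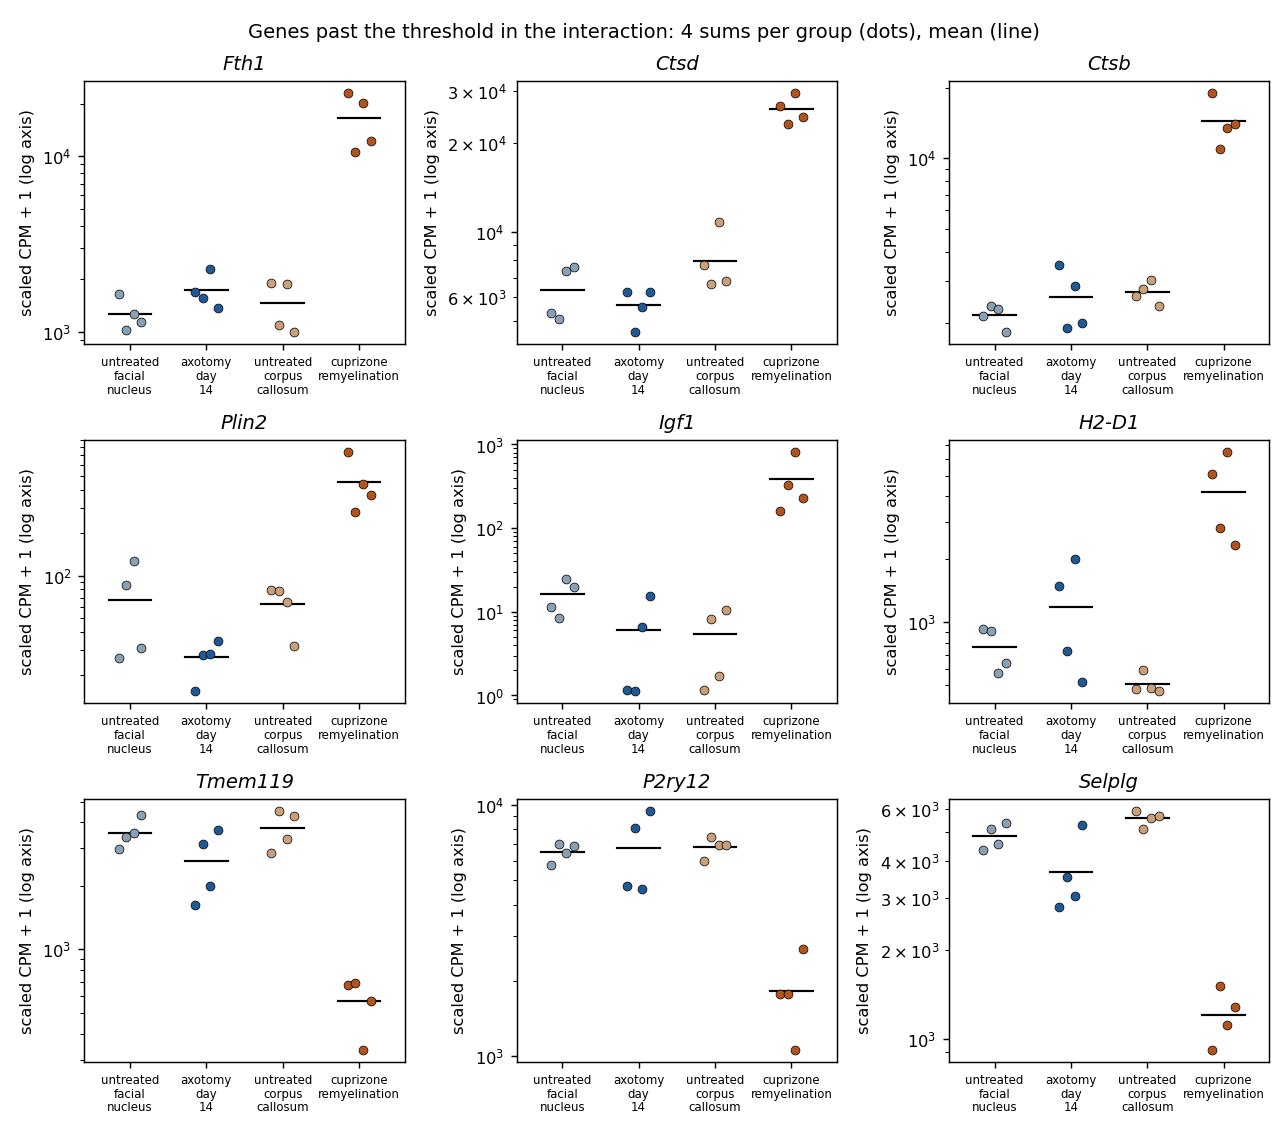
Scaled CPM plus 1 (log axis) of named genes in each labelled mouse of the 4 groups, with a bar at the group mean. The genes called higher lie highest in all 4 remyelination mice, and Tmem119, P2ry12 and Selplg lie lowest there, while the day 14 mice overlap untreated facial nucleus.

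Genes of MHC class II, which displays peptides to helper T cells, were measured in 10 members, and none was called by edgeR in the interaction. Their median was 1.70, 2 had an unadjusted p under 0.05, DESeq2's Wald test called 2 and limma 1. The same counts over all 20287 genes were 4865, 2734 and 1158. In the remyelination arm H2-Aa, H2-Eb1 and Cd74 passed, where 1.62% of all genes were higher. H2-Aa, the class II alpha chain, was at 43.97, 3257, 1885 and 885 CPM in remyelination, the same order of mice as for Cd74, and averaged 3.228 ± 1.46 CPM in corpus callosum, 1.248 ± 1.89 at day 14 and 1.423 ± 2.85 in facial nucleus. Its interaction was 9.06 ± 2.59 (adjusted p = 0.0753), and without facial nucleus replicate 2 it was 2.29 (adjusted p = 0.961). H2-Ab1, the beta chain, was at 2.98 (adjusted p = 0.4) and H2-Ob at 1.09 (adjusted p = 0.348).

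For MHC class I, which displays peptides to cytotoxic T cells, 1 of 17 members was called higher, against 0.34% of all genes. H2-D1, a class I heavy chain, was at 5123, 2816, 6522 and 2327 CPM in remyelination and 478.7, 589.6, 483.2 and 467.2 CPM in corpus callosum, against 1497, 724.7, 2003 and 517.7 CPM at day 14 and 926.6, 911.3, 570.2 and 638 CPM in facial nucleus. All remyelination mice were above all others, and 2 of the day 14 mice were above the facial nucleus range. The interaction was 2.42 ± 0.48 (adjusted p = 0.0149). H2-K1 (1.89, adjusted p = 0.056), the light chain gene B2m (1.41, adjusted p = 0.0505) and the loading factor Pdia3 (1.29, adjusted p = 0.0536) missed the threshold. The class I heavy chains are close in sequence, so reads could have been split between them in the counting.

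Complement genes were called in 2 of 19 members, both higher, against 0.34% of all genes. C1qa, a chain of the recognition molecule C1q, was at 10970, 7430, 6729 and 6810 CPM in remyelination, while the other 12 mice lay between 3505 and 4563 CPM, with 1.14 ± 0.22 (adjusted p = 0.0116). It was called in 26 of 32 settings, from 0.64 to 1.31, with the highest adjusted p under limma (0.63). The separation depends on the scaling. Before TMM the 22 complement genes summed to 12930 to 17110 CPM in remyelination, 11910 to 16080 at day 14 and 14560 to 15050 in facial nucleus. C3ar1, the receptor for the C3a fragment, was at 976.2, 1058, 1087 and 944.1 CPM in remyelination and averaged 148.3 ± 26.9 in corpus callosum, 286.7 ± 234 at day 14 and 282.8 ± 135 in facial nucleus, with 2.76 ± 0.57 (adjusted p = 0.0234). Itgax, an integrin chain of the complement receptors, was at 4.93 ± 1.28 (adjusted p = 0.0553) and C1qc at 1.01 (adjusted p = 0.0503).

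Of 23 chemokine and cytokine genes 1 was called higher, Ccl6, a CC chemokine, against 0.34% of all genes. Ccl6 was at 1862, 859.7, 1502 and 2296 CPM in remyelination and 217.5 to 299.4 CPM on average in the other groups. Its interaction was 2.04 ± 0.44 (adjusted p = 0.0294), called in 8 of the 16 fits without 1 mouse. Ccl3 had a fitted 8.54 (adjusted p = 0.121). Il6 and Il1b were fitted at -5.55 (adjusted p = 0.0671) and -9.39 (adjusted p = 0.145), and both were at or near 0 in remyelination.

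Of 29 interferon response genes none was called by edgeR, with 4 at an unadjusted p under 0.05, 2 called by DESeq2's Wald test and 1 by limma, and a median of 0.50 that limma placed at -0.19. All 20287 genes together had 4865 at such a p, 2734 called by DESeq2 and 1158 by limma. The antiviral genes Mx2 and Mx1 were fitted at -12.64 (adjusted p = 0.0553) and -8.82 (adjusted p = 0.0809). Bst2, tetherin, was at 2.61 (adjusted p = 0.177) in the interaction and passed in the remyelination arm at 3.79 (adjusted p = 0.0209). Mx2 had no count in any remyelination mouse, and Oas2, at -7.00 (adjusted p = 0.154), likewise had none.

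Cell cycle genes (34 measured, median -1.46) and immediate early genes (20 measured, median -0.87) were not called by edgeR. Of the cell cycle genes 4 had an unadjusted p under 0.05, DESeq2's Wald test called 4 and limma 2, and of the immediate early genes the numbers were 2, 1 and 1. Over all 20287 genes they were 4865, 2734 and 1158. The mitotic genes Plk1, Prc1, Ccnb2 and Kif11 were fitted between -5.4 and -6.2 with adjusted p of 0.162 to 0.185, from means of at most 18.23 CPM in any group. Atf3, a stress-induced transcription factor, was at 3.16 ± 1.56 (adjusted p = 0.217), with 306.4 ± 61.4 CPM in remyelination and 8.63 ± 10.2 in corpus callosum.

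Ribosomal and mitochondrial transcripts, often read as signs of RNA content and quality, were counted as well. Of 83 ribosomal protein genes 1 was called higher, where 0.34% of all genes were higher. It was Rps9 at 1.73 ± 0.42 (adjusted p = 0.0499), called in none of the 16 fits without 1 mouse. The list's median was 1.01. Of 76 nuclear genes of oxidative phosphorylation none was called by edgeR, with 17 at an unadjusted p under 0.05, 7 called by DESeq2's Wald test and none by limma, and a median of 1.07. Set against all 20287 genes, the corresponding counts were 4865, 2734 and 1158. Of 21 mitochondrially encoded genes 1 was called higher, against 0.34% of all genes. It was the ribosomal RNA mt-Rnr2, at 10060, 13510, 8213 and 13540 CPM in remyelination and 1648 to 3918 CPM in the other mice, with 1.79 ± 0.34 (adjusted p = 0.0109), and copies in the nuclear genome could have taken some of its reads. The ribosomal and oxidative phosphorylation medians were close to that of the lysosomal list (1.15), and the part that RNA content or quality had in the other results was not tested.

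**Figure D4:**
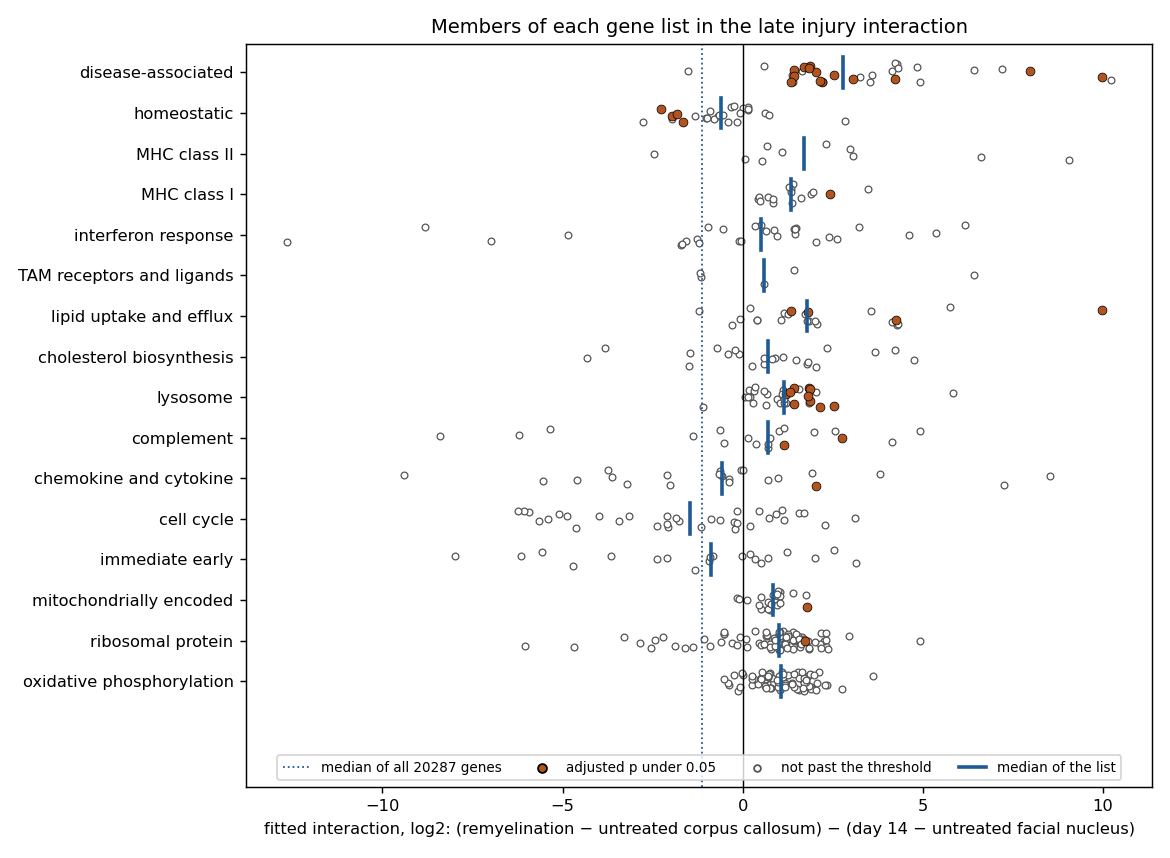
Fitted interaction (log2) of each measured member of each gene list, with called members marked. The disease-associated list has a median of 2.80 and the lysosome list 1.15, while homeostatic genes have -0.61.

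By size, the 10 named genes with the largest positive difference among those called were Lyz1, Apoc4, Rab7b, Fabp5, Ms4a7, Il1r1, Igf1, Hal, Vim and Adssl1. Rab7b, a small GTPase of late endosomes, was at 123.7, 693.3, 522.3 and 229.4 CPM in remyelination and averaged 1.064 ± 1.31 in corpus callosum, with 10.30 ± 1.80 (adjusted p = 0.00486). Il1r1, the interleukin-1 receptor, was at 161.3, 37.1, 11.81 and 75.5 CPM, and averaged 18.89 ± 6.01 CPM in facial nucleus, above 1 of the remyelination mice. It was fitted at 8.42 ± 1.85 (adjusted p = 0.0329). Vim, an intermediate filament, was at 336.8, 61.66, 403.1 and 206.2 CPM, with 7.31 ± 1.76 (adjusted p = 0.0478), Hal was at 7.34 ± 1.75 (adjusted p = 0.0456), and Adssl1 at 5.92 ± 1.42 (adjusted p = 0.0476). Few of these calls were steady: of the 16 fits without 1 mouse Vim was called in 1, Hal in 3, Adssl1 in 4, Il1r1 and Fabp5 in 7, Igf1 in 11 and Rab7b in 12.

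The lysozyme gene Lyz1 and the apolipoprotein gene Apoc4 had no count in corpus callosum, so their fitted values depend on the prior count. Lyz1 was at 47.53, 11.65, 138.2 and 6.966 CPM in remyelination, at least 757-fold higher than the 3-count floor over the corpus callosum group, and Lyz2 is a close copy that could share its reads. Apoc4 was at 456.8, 185.6, 57.52 and 131.2 CPM, at least 2550-fold higher than that floor. Lyz1 was called in 10 of the 16 fits without 1 mouse and Apoc4 in 4. Without facial nucleus replicate 4 the Apoc4 interaction was 6.01 with an adjusted p of 1.0.

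Among those with the largest negative difference were Cptp, Acy1, Slco5a1, Ice2, Usf3, Tet1, Ttc39b, Csmd3 and Tmem119. Acy1, an aminoacylase, had no count in any remyelination mouse and was at 53.24, 95.9, 59.5 and 83.35 CPM in corpus callosum, at least 826-fold higher than the floor over the remyelination group. At day 14 it was at 32.06, 4.966, 12.91 and 37.95 CPM and in facial nucleus at 80.2, 71.93, 103.3 and 52.56 CPM, so the day 14 mice also lay below their region, without passing the test there (-1.81, adjusted p = 0.77). Cptp, a ceramide phosphate carrier, and Slco5a1, a transporter, were also at 0 in remyelination, at least 315-fold and at least 30-fold lower than corpus callosum.

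Ice2, Usf3, Tet1 and Ttc39b averaged at most 1.196 CPM in remyelination and 33.14 to 134.5 CPM in corpus callosum, with adjusted p between 0.00908 and 0.0444. Csmd3, a large membrane protein, was at -2.61 ± 0.58 (adjusted p = 0.0343). Cptp, Acy1, Ice2 and Tmem119 were called in all 16 fits without 1 mouse, Csmd3 in 9, Usf3 in 7, Tet1 in 5, and Slco5a1 and Ttc39b in 4.

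**Figure D5:**
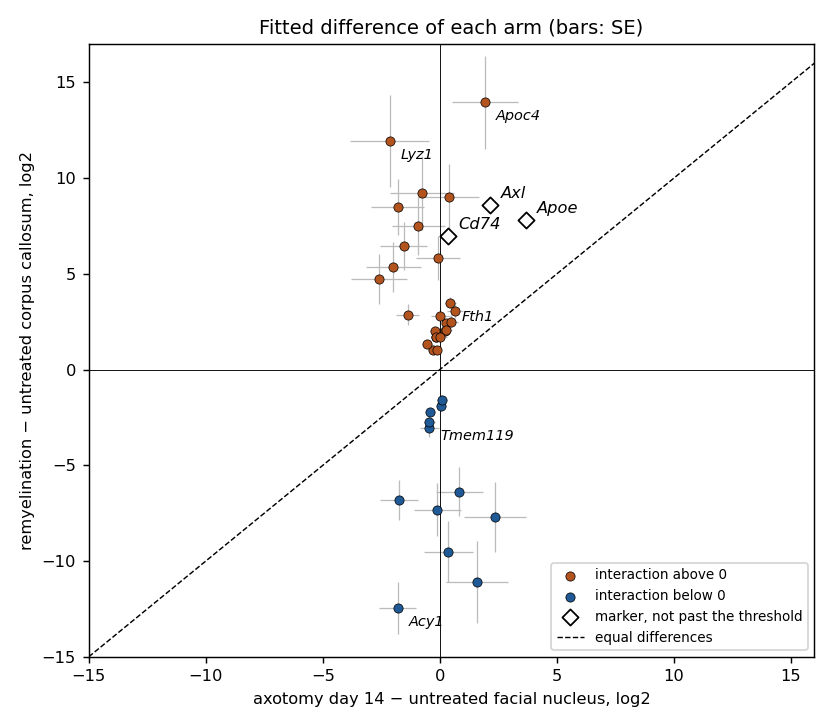
Fitted log2 difference in the remyelination arm (vertical) against the day 14 arm (horizontal) of called named genes (dots, with SE bars) and of Apoe, Axl and Cd74 (diamonds). Both axes enter the interaction, so the plot shows its 2 parts, and Apoe is among the genes with positive values in both (7.81 and 3.67).

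Border macrophage markers had a higher sum in the remyelination group than in the other 3 groups of the contrast. This was not particular to remyelination. Before TMM scaling the sum was 386.1 to 586.2 CPM in demyelination, the earlier cuprizone stage, and 302.7 to 533.5 CPM in remyelination. The 12 summed to 447.8 to 865.6 scaled CPM per remyelination mouse. In corpus callosum the sum was 130.7 to 285.7, at day 14 86.04 to 214.0 and in facial nucleus 117.3 to 311.1. Every remyelination mouse was thus above all others of the contrast in the scaled sum. In replicate 3, the lowest of them, Ms4a7 made up 306.6 of the 447.8 CPM, so its separation rested on that gene. Of 8 tested members 6 were positive, with a median of 1.76, and 1 was called, Ms4a7, at 363, 167.1, 306.6 and 75.09 CPM in remyelination, with 8.63 ± 2.02 (adjusted p = 0.0421), called in 5 of the 16 fits without 1 mouse. Among all genes 0.34% were called higher. Of the 12 markers 4 were at 0 in remyelination, Cd163, Lyve1, Cd209f and Clec10a, in the group with the fewest detected genes per cell, and Lyve1 was also at 0 in facial nucleus. Mrc1, which encodes CD206, was read in 5 of the 129 remyelination cells and 12 of the 173 corpus callosum cells. Monocyte markers summed to 105.5 to 428.1 scaled CPM in remyelination and 16.84 to 380.0 in the other groups, none of 10 was called by edgeR (2 had an unadjusted p under 0.05, and DESeq2's Wald test and limma each called 1), and Ly6c2 and F10 were at 0 in remyelination. For all 20287 genes 4865 had an unadjusted p under 0.05, and DESeq2's Wald test called 2734 and limma 1158. A cell was flagged if at least 2 genes of the monocyte and border macrophage lists together had 10 or more reads each. Cells with fewer marker reads were not flagged. Flagged cells made up 27.9% of remyelination cells, 21.4 to 23.6% of the other groups of the contrast and 47.8% of demyelination cells. Without them 663 of the 17929 genes tested were called, against 156 with them, and the disease-associated list had 19 of 32 members called and the lysosomal list 11 of 34. In the same fit the MHC class II median was 0.72 in place of 1.70, and H2-Aa was at 4.49 with an adjusted p of 0.984. Oligodendrocyte markers, led by Mbp, summed to 114.1 to 1821 scaled CPM in remyelination and 84.28 to 426.8 elsewhere. The part of other cell types' RNA in the results beyond this fit was not tested.

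Because day 3 and day 14 axotomy shared a plate, and demyelination and remyelination another, the change from early to late within each injury could be compared without crossing plates. Of 18233 genes tested in that comparison, remyelination minus demyelination less day 14 minus day 3, 7 were higher (0.0384%) and 3 lower (0.0165%), with a median of 0.02. Apoe was not called (-1.34, adjusted p = 0.903), with 110500 ± 21020 CPM in demyelination and 177500 ± 45130 in remyelination, scaled within these injured groups. The sign is negative because the fitted log2 rise from day 3 to day 14 was larger than that from demyelination to remyelination. Axl was at 1296 ± 91.5 and 1104 ± 222 CPM (-0.21 in the comparison). Cd74 was at 493.4 ± 306 in demyelination and 4136 ± 3366 in remyelination, with 4.43 ± 1.68 (adjusted p = 0.448). None of the 3 passed the test, so no difference in their early to late change was detected here.

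Ctsd and Ccl6 were lower in this comparison. Ctsd averaged 49140 ± 4021 CPM in demyelination and 22160 ± 2270 in remyelination, and 5306 ± 784 and 4889 ± 742 CPM at day 3 and day 14, which gave -1.03 ± 0.17 (adjusted p = 0.021). Ccl6 averaged 3697 ± 796 and 1394 ± 525 CPM in the cuprizone groups and 113.8 ± 51.0 and 259.2 ± 61.6 in the axotomy groups, which gave -2.6 ± 0.43 (adjusted p = 0.021). Both averaged less in remyelination than in demyelination. Tbc1d10b, a Rab GTPase regulator, was the other lower gene at a fitted -10.12. The 7 higher genes were all mitochondrially encoded (mt-Cytb, mt-Nd1, mt-Nd4, mt-Rnr1, mt-Co1, mt-Nd5 and mt-Rnr2), led by mt-Cytb, a subunit of complex III, at 1.56 ± 0.22 (adjusted p = 0.00471). It averaged 8549 ± 1186 CPM at day 3 and 4009 ± 600 at day 14. In demyelination it averaged 6602 ± 953 and in remyelination 9134 ± 1792 CPM. All 7 averaged less at day 14 than at day 3, and more in remyelination than in demyelination. The median mitochondrial share per cell was 3.09% at day 3 and 1.54% at day 14, and 1.56% in demyelination and 2.24% in remyelination. Tmem119 and P2ry12 were at 0.05 and -0.21 in this comparison.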

How the data were processed

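The deposited table holds read counts per gene and well of Smart-seq2 libraries, which carry no molecular identifiers and do not mark strand. The submitters' processing notes list STAR 2.5.2b, featureCounts 1.5.1 and build GRCm38, and the strand setting and annotation release were not given in the sources used here. Names and positions came from GENCODE vM21 (48349 of 48709 identifiers found), and promoter sequences from RefSeq. Kept wells were summed per labelled mouse. Genes were filtered with filterByExpr (minimum count 10, minimum total 15), scaled by TMM and tested with edgeR 4.0.16 in R 4.3.3 (quasi-likelihood, adjusted p under 0.05). Only this edgeR fit was checked on simulated counts. DESeq2 1.42.0, with its own size factors, and limma 3.58.1 were alternatives. The limma fit used another measure, the mean over cells of log2 CPM plus 1 without TMM, so its values are not on the scale of the main fit. No 2 sums within a group held the same counts (lowest chi-square per degree of freedom 53.5), which says nothing on whether 2 of them came from 1 mouse. Doublets were not called, as wells were sorted to hold 1 cell. Named genes were Apoe, Axl and Cd74; among called genes with an official symbol and a mean of at least 50 CPM in a group, the 10 largest in each direction; and up to 4 members of each list by unadjusted p. A few items the rule or lists hold are not reported here. The members, lists and tests were chosen with earlier results of these data known.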

Additional observations from a re-analysis of the deposited data

Results flagged for a closer look

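The interaction itself is a difference between the effects of 2 injuries, and 156 genes passed its test. For the change from early to late injury 10 genes passed. Among the named genes 14 of 208 sets of 4 mice had a mouse whose gap to the nearest of the others exceeded Dixon's 95% critical share of the range, and chance flags about 1 in 20 such sets. In remyelination all 4 flagged values were in replicate 1, with Apoe at 289100 CPM (others 174700 to 192700), C1qa at 10970, Mertk at 289.4 and Atf3 at 397.2 CPM, each the highest. In untreated corpus callosum H2-D1 was highest in replicate 2 at 589.6 CPM, while Mertk at 651.4 and Prc1 at 54.88 CPM were highest in replicate 4. At day 14 replicate 3 was highest for Mx2 at 50.52, Mx1 at 91.89, Ccl3 at 478.7 and Il1b at 231.2 CPM, where the other 3 mice had no Il1b count. Replicate 4 of that group was highest for H2-Ob at 113.4 and Ccl6 at 400.6 CPM, and replicate 2 lowest for Rps9 at 84.3 CPM. No set of facial nucleus was flagged.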

How the results depend on the processing

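The number of genes called in the interaction was 156 in all. It was 2734 with DESeq2's Wald test (282 higher, 2452 lower), 1059 with no filter on low counts and 1158 with limma. With at least 1000 genes per well it was 93, and without the cells flagged for monocyte or border macrophage reads 663 (85 higher, 578 lower). Over genes of at least 50 CPM, an alternative chosen after seeing the data, it was 79 (48 higher, 31 lower). It ranged from 52 (without corpus callosum replicate 2) to 165 without 1 mouse. The 778 calls of the remyelination arm became 4335, 2714, 1695 and 490 with DESeq2's Wald test, limma, those cells left out and the 50 CPM level, and 334 to 631 without 1 mouse. The day 14 arm, with 0 calls, had 6 with DESeq2's size factors, 142 with DESeq2's Wald test, 34 with no filter, 5 over genes read in 20% of cells, 4 with all 10 groups in the fit, 3 with equal weight for each cell, 1 with limma, 7 after thinning, 1 without the cell filter, 6 at 50 CPM and 0 to 3 without 1 mouse. The 10 calls of the early to late comparison became 584 with DESeq2 and 80 with no filter, and 1 to 15 without 1 mouse. With a replicate block the interaction had 78 calls (56 higher, 22 lower), the remyelination arm 445 and the early to late comparison 2. Sums with the same number correlated at -0.059 to 0.072 over 3762 genes. Of 16 sums, 8 correlated best with their own number, out of 4 numbers. These values do not show whether equal numbers mark 1 mouse, and the main fit did not take the numbers as pairs. Of 38 called genes that the naming rule holds none reversed, and limma left 21 called and the block 24. Under limma H2-Ob (-0.09), Pdia3 (-0.54), Gas6 (-0.08), Pros1 (-1.02), Junb (-0.28), mt-Nd1 (-0.55), mt-Cytb (-0.72) and mt-Nd4 (-0.68) reversed, as did Dhcr7 (-0.11) without those cells and Il1b (2.72) without day 14 replicate 3 (-10.71 to 2.72 without 1 mouse, -27.74 to 2.72 over all settings). The cause was not tested. Depth limits the genes with no count in a group.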

Other observations

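The smallest p of the interaction belonged to Gm10800 (chromosome 2, 98666547 to 98667301), a predicted gene outside the rule for named genes and singled out after its values were seen. It was at 8877, 7135, 5088 and 2311 CPM at day 14 and at 2445, 2022, 1591 and 1279 CPM in facial nucleus. It was at 97.15, 184.3, 179.1 and 170.3 CPM in remyelination and at 1581, 1694, 1120 and 1938 CPM in corpus callosum. The interaction was -5.00 ± 0.44 (adjusted p = 6.27e-07), with -3.33 in the remyelination arm and 1.67 in the day 14 arm (adjusted p = 0.0671). Gm10801, Gm10717 and Gm21738 were also called lower in all 16 fits without 1 mouse.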
